A study of Mus musculus with 14 samples.

Results

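Cholesterol is made in the brain itself, because the blood-brain barrier keeps out most of the cholesterol of the blood. The enzymes of cholesterol synthesis and Insig1, a brake on the pathway, were followed here across the brains of newborn WT and Capn15 KO mice. The genes are Hmgcs1, Idi1, Fdps, Fdft1, Sqle, Lss, Cyp51, Dhcr7 and Insig1, chosen by name, and all 9 of 9 were found among the 17927 genes of the deposited counts. RNA-SEQ was performed on whole brains at postnatal day 2 (P2), 7 of them WT and 7 Capn15 KO. The lines were made from C57BL/6J mice. The study describes a Capn15 lacZ-Neo and a floxed Capn15 line, and which of them gave these KO brains is not given in the sources used here. The brains came from 6 litters, named A to F here as in the column names, with 4 brains in litter B and 1 WT and 1 KO brain in each of the others. Each KO brain shared its litter with the WT brain of the same replicate number. Of the WT brains 2 were female and 5 male, and of the KO brains 4 were female and 3 male. The brains of a pair differed in sex in replicates 1 to 6, and in replicate 7 both were male.

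Cholesterol synthesis begins with acetyl-CoA. Hmgcs1 makes HMG-CoA, from which mevalonate is formed, and later steps turn mevalonate into isoprene units that are joined to squalene. Squalene is then closed to lanosterol, and the last steps turn lanosterol into cholesterol. The genes of these enzymes are targets of the transcription factor SREBP2 (gene Srebf2), which is held in the endoplasmic reticulum by Insig proteins when sterols are plentiful and is released when they are scarce. Insig1 is itself an SREBP target, so that its transcript is a readout of the pathway as well as a part of its feedback. Around birth, cholesterol is made by neurons and glia, and the demand rises when oligodendrocytes begin to form myelin.

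SREBPs bind sterol regulatory elements, which often lie near a CCAAT box bound by the factor NF-Y. Since the 9 genes varied together across the brains, as described further down, their promoters were searched for TCACNCCAC, a form of the sterol regulatory element, and for CCAAT, both on either strand. RefSeq promoters of the build GRCm38.p6 were given for 6 of the 9 genes, not for Sqle, Fdps and Fdft1, and 5 of the 6 have a single listed start. TCACNCCAC was found in 1.05% and CCAAT in 33.8% of all 32851 promoters of the same 250 bases before the start. Of these 5, the promoters of 4 genes are shown, with the matched letters in capitals, a CCAAT on the other strand reading ATTGG. They are Hmgcs1 (at chr13:119690101-119690350, plus strand), the only one of the 6 genes with TCACNCCAC, Idi1 (at chr13:8885356-8885605, plus strand), with 2 CCAAT matches close to the start, and the pair Lss (at chr10:76531355-76531604, plus strand) and Insig1 (at chr5:28071162-28071411, plus strand), which correlated less with the other genes over all 14 libraries, though not without litter B.
Hmgcs1: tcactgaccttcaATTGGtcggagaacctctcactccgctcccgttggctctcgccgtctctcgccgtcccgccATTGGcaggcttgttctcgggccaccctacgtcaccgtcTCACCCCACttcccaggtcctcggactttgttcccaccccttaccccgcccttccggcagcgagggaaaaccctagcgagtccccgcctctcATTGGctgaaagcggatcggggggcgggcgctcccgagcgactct
Idi1: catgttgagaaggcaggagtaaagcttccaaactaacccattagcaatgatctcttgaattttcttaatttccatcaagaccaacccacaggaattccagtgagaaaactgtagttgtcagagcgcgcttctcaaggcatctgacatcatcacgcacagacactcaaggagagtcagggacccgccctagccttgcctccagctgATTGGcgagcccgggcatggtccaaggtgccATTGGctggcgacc
Lss: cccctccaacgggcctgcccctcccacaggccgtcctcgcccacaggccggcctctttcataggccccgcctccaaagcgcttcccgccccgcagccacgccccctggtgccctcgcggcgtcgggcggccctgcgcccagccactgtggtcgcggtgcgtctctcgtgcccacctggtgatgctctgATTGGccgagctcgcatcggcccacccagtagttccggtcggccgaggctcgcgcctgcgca
Insig1: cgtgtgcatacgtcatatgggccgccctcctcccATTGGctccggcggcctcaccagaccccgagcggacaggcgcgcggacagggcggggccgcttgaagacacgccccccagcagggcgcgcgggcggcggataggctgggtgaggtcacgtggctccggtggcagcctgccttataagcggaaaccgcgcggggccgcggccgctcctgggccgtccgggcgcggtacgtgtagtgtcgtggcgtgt
In Hmgcs1 the TCACNCCAC match began 137 bases before the start, between CCAAT matches on the other strand beginning 176 and 45 bases before it. The CCAAT matches of Idi1 began 45 and 14 bases before the start, that of Lss 62 bases before it and that of Insig1 216 bases before it. Cyp51 had 1 CCAAT match, 29 bases before the start, and Dhcr7, with 3 listed starts, had CCAAT before 1 of them. These are matches of letters and no measure of binding.

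The libraries held between 37620954 and 70910163 reads counted on genes. Levels are given as CPM, the counts of a gene for every 1000000 counts of a library, with edgeR's TMM factors applied. Counts of the 9 genes lay between 841 for Idi1 and 83550 for Hmgcs1 in a library, far above the floor of 3 counts. The labels give neurons as the cell type, but the markers of astrocytes and radial glia, the oligodendrocyte lineage, microglia, endothelium, choroid plexus, meninges and red cells were each detected in every library, as from a whole brain. Capn15 itself lay between 24.98 and 27.3 CPM in WT replicates 1 to 6 and between 12.2 and 14.5 CPM in KO replicates 1 to 6. In litter F it was at 18.7 CPM in the library labelled WT 7 and at 20.2 CPM in the library labelled KO 7, which goes against these labels, so that the numbers of genes and fold changes are also given without that pair. Over all genes, edgeR's quasi-likelihood test with litter and sex as covariates gave 1 gene with an FDR (Benjamini-Hochberg adjusted p) under 0.05 between KO and WT, which is 0.00558% of the 17927 tested. Capn15 was not that gene, since its FDR was 0.0747 at a log2 fold change of -0.81. In 8 of 28 alternative fits the FDR of Capn15 was under 0.05, though the 28 include fits that are nearly the same. The number of genes was 34 in the likelihood ratio test, 17 in DESeq2 and 7 without the pair labelled replicate 7.

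Comparison of KO with WT asked whether the loss of Capn15 changed the transcripts of the pathway. None of the 9 genes had an FDR under 0.05. All 9 were fitted lower in KO, where 48.6% of all genes were, with log2 fold changes from -0.13 to -0.07 and a median of -0.11, against a median of 0.0015 over all genes. Of the 9, 6 were lower with an unadjusted p under 0.05, a share of genes that was 2.26% over all genes tested. The 9 genes varied together across brains, with a median r of 0.83 between them, as described further down. These counts are therefore not counts of independent genes. WT and KO libraries overlapped for each of the 9, whereas 0.00558% of all genes had no overlap. KO was lower in 6 of 7 pairs for Hmgcs1, Idi1, Sqle and Lss and in 7 of 7 for none of the 9, while 5.52% of all genes were lower in at least 6 pairs and 0.597% in 7. Without covariates, 0 of the 9 had a two-sided unadjusted p under 0.05 in the exact permutation test, against 1.73% of all genes, and 0 in the exact sign-flip test over the pairs, against 3.55%. In a whole brain, fewer cells that make cholesterol and less RNA per cell cannot be told apart.

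**Figure D1:**
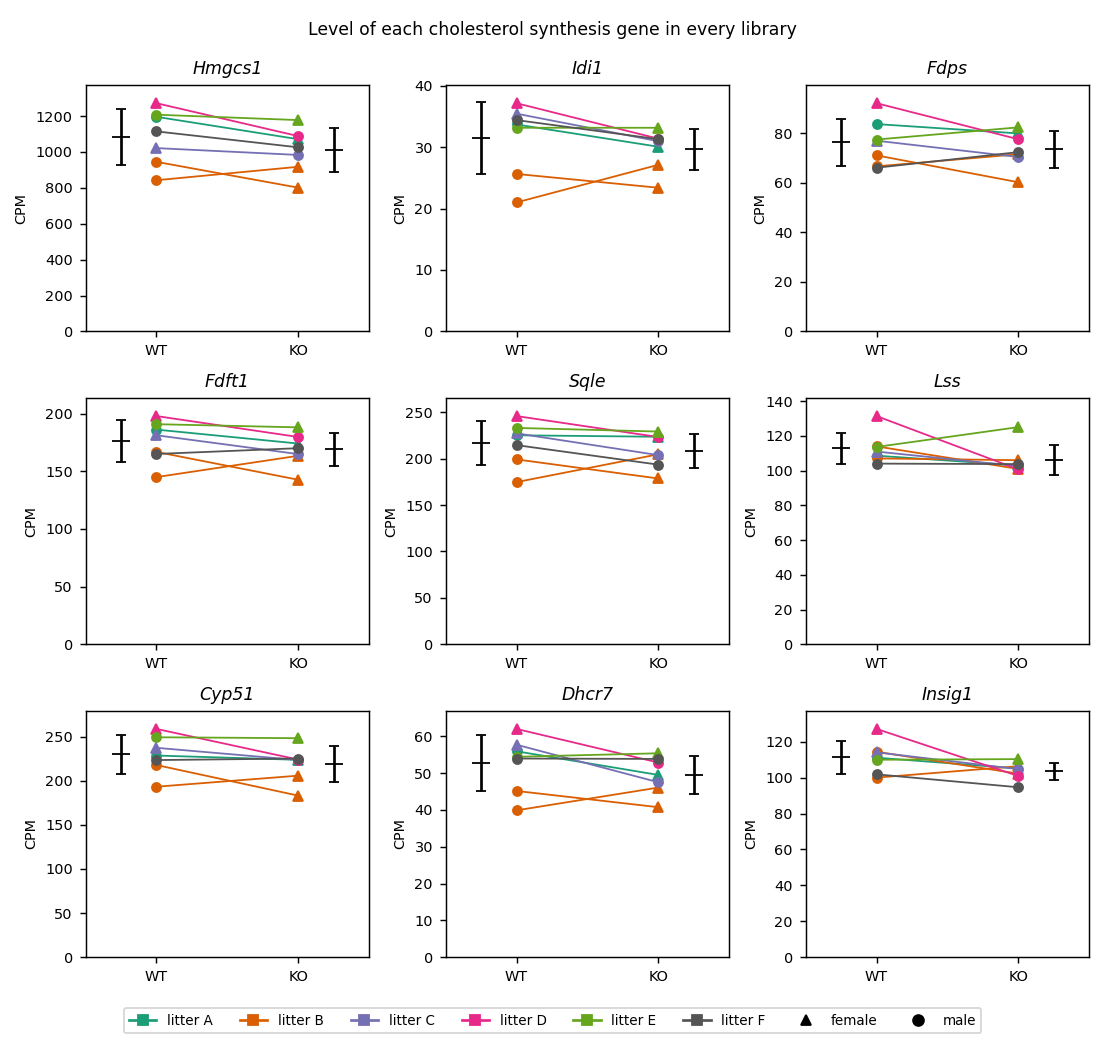
CPM (TMM scaled) of each gene in the 7 WT and 7 KO libraries, lines joining the WT and KO brain of 1 replicate number, colours giving the litter and symbols the sex, with the mean ± SD of each group at the sides. WT and KO overlap for every gene, litter B (orange) lies low for most of them, and the WT brain of litter D (pink) is highest for all 9.

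Hmgcs1 (ENSMUSG00000093930, chr13:119690379-119708260, plus strand, GRCm38), which makes HMG-CoA at the head of the pathway, lay between 843 and 1272 CPM in WT with a median of 1115 CPM and between 801 and 1178 CPM in KO with a median of 1026 CPM. The lowest WT and KO libraries were both of litter B, and the KO brain was the lower one in 6 of 7 pairs. The mean was 1086 ± 156 CPM in WT and 1009 ± 123 CPM in KO (SD, n = 7 each). The fitted log2 fold change was -0.11 with an SE of 0.038 and a 95% interval of -0.19 to -0.029, and edgeR's quasi-likelihood FDR was 0.780.

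Idi1 and Fdps act on the isoprene units. Idi1 (ENSMUSG00000058258, chr13:8885501-8892451, plus strand), the isomerase that makes dimethylallyl diphosphate, ranged from 20.99 to 37.1 CPM in WT (median 33.7 CPM) and from 23.4 to 33.1 CPM in KO (median 30.9 CPM). Its KO range lay inside the WT range, and the highest KO library, replicate 6, was level with its WT littermate. The log2 fold change of Idi1 was -0.11 (95% interval -0.22 to 0.0040), with a quasi-likelihood FDR of 0.972. Fdps (ENSMUSG00000059743, chr3:89093588-89101959, minus strand), which joins the units to farnesyl diphosphate, the branch point to cholesterol, dolichol, ubiquinone and prenylated proteins, ranged from 66.02 to 92.1 CPM in WT (median 76.9 CPM) and from 60.2 to 82.3 CPM in KO (median 72.3 CPM). Fdps was lower in KO in 4 of 7 pairs, the fewest of the 9 genes, and had a log2 fold change of -0.07 (95% interval -0.17 to 0.030). Of these genes, Idi1 and Fdps are among the 4 with processed pseudogenes alike over at least 100 bases at 90% identity or more, Fdps with 6 and Idi1 with 3, 1 of them identical to Idi1 over 684 bases, whose effect on the counts was not tested.

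Fdft1 and Sqle commit the pathway to sterols. Fdft1 (ENSMUSG00000021273, chr14:63145150-63179578, minus strand), squalene synthase, lay between 145 and 198 CPM in WT (median 181 CPM) and between 143 and 188 CPM in KO (median 170.0 CPM). Both groups covered nearly the same range, and the log2 fold change was -0.07 (95% interval -0.15 to 0.017). Its transcripts overlap those of Ctsb, a lysosomal protease gene on the other strand, over 774 bases, and the strand setting of the counting is not given in the sources used here. Sqle (ENSMUSG00000022351, chr15:59315077-59331192, plus strand), squalene epoxidase, lay between 175 and 246 CPM in WT (median 225 CPM) and between 179 and 229 CPM in KO (median 205 CPM). KO was lower in 6 of 7 pairs, replicate 2 of litter B being the exception, and the log2 fold change was -0.08 (95% interval -0.16 to -0.0013) with a quasi-likelihood FDR of 0.959.

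Lss, Cyp51 and Dhcr7 form and trim the sterol rings. Lss (ENSMUSG00000033105, chr10:76531588-76557138, plus strand), lanosterol synthase, ranged from 104 to 131 CPM in WT (median 111 CPM) and from 101 to 125 CPM in KO (median 103 CPM). Single libraries made the upper end in both groups, WT 5 at 131 CPM and KO 6 at 125 CPM. The log2 fold change of Lss was -0.12 (95% interval -0.21 to -0.029), with a quasi-likelihood FDR of 0.784.
Cyp51 (ENSMUSG00000001467, chr5:4081145-4104746, minus strand), which removes a methyl group from lanosterol, ranged from 193 to 259 CPM in WT (median 229 CPM) and from 183 to 248 CPM in KO (median 224 CPM). In litters E and F the KO and WT values of Cyp51 were nearly level, and the log2 fold change was -0.08 (95% interval -0.16 to -0.0015) with a quasi-likelihood FDR of 0.959. Dhcr7 (ENSMUSG00000058454, chr7:143823145-143848410, plus strand), which catalyses the last step from 7-dehydrocholesterol and whose loss causes Smith-Lemli-Opitz syndrome in humans, ranged from 39.9 to 62.0 CPM in WT (median 54.4 CPM) and from 40.7 to 55.4 CPM in KO (median 49.5 CPM). The KO range of Dhcr7 again lay inside the WT range, and the log2 fold change was -0.12 (95% interval -0.21 to -0.025) with a quasi-likelihood FDR of 0.818.

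Insig1 (ENSMUSG00000045294, chr5:28071363-28078662, plus strand), which retains the SREBP complex in the endoplasmic reticulum, ranged from 100.01 to 127 CPM in WT (median 111 CPM) and from 94.6 to 110.3 CPM in KO (median 105 CPM). It had the lowest FDR of the 9 genes, at 0.540, with a log2 fold change of -0.13, an SE of 0.036 and a 95% interval of -0.21 to -0.052. KO was lower in 5 of 7 pairs, and the groups overlapped. Its exact permutation p without covariates was 0.0676, two-sided and unadjusted, the lowest of the 9, which reached up to 0.588 for Idi1. The smallest p that this test allows with 7 against 7 libraries is 0.000583.

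**Figure D2:**
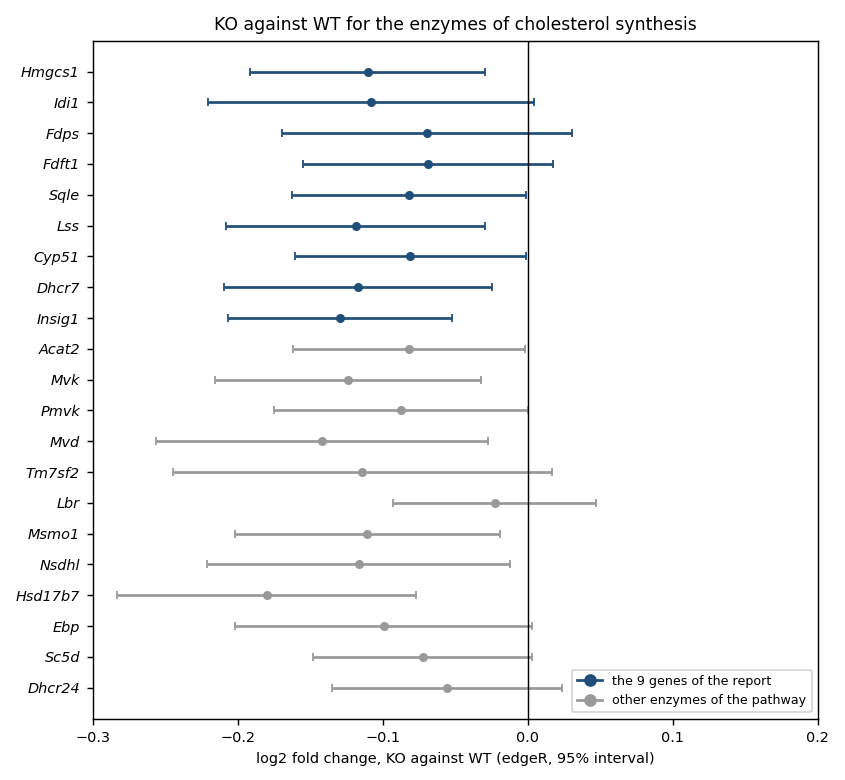
Fitted log2 fold change of KO against WT with its 95% interval (edgeR, litter and sex as covariates) for the 9 genes, in blue, and 12 other enzymes of the pathway, in grey, 0 marked by the line. All points lie below 0, between -0.18 and -0.02, and no gene had an FDR under 0.05.

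Within a pair, the genes mostly differed in the same direction. KO was below its WT littermate for 9 of 9 genes in replicates 1, 3, 4 and 5. It was so for 1 of 9 in replicate 2, for 5 of 9 in replicate 6 and for 6 of 9 in replicate 7. The 9 genes varied together across brains, so these are not counts of independent genes. The share of all genes lower in each single pair is not given here. The median difference was -0.23 on the log2 scale in replicate 5 (litter D), the lowest of the 7 pairs, and 0.12 in replicate 2 (litter B), the highest. Replicates 2 and 3 belong to the same litter, where only the number joins a KO with a WT brain. The WT brain of litter D was the highest of the 14 libraries for all 9 genes, as it was for 4.5% of all genes, and for 10 of the 13 other enzymes. Without the 2 libraries of litter D, 0 of the 9 genes had an unadjusted p under 0.05 in edgeR's test, and the median log2 fold change was -0.08. Leaving out WT 4 or KO 4 of litter C, which with litter as a covariate is nearly the same fit, left 3 such genes. Over all genes, an unadjusted p under 0.05 in either direction was found for 5.14% with all libraries, for 8.08% without litter D and for 6.96% without WT 4. Without the pair labelled replicate 7 the median was -0.11, with 6 genes at an unadjusted p under 0.05, against 3.74% of all genes in either direction.

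The other enzymes of cholesterol synthesis were fitted in the same direction. Of 14 listed, 13 were measured and 0 had an FDR under 0.05, all 13 were fitted lower in KO, and 8 had an unadjusted p under 0.05, against 48.6% and 2.26% of all genes, with a median log2 fold change of -0.10. The 8 became 4 to 9 with 1 library left out. The lowest number was found without WT 5 or KO 5, which with litter as a covariate are nearly the same fit. The 8 became 0 with genotype alone or with sex but not litter as covariate. The 13 varied with the 9 genes across brains, at a median r of 0.89 with their mean. They are therefore not a set independent of the 9. The widest difference was that of Hsd17b7, a ketoreductase of the late steps, at -0.18 with a quasi-likelihood FDR of 0.475, followed by Mvd, mevalonate diphosphate decarboxylase, at -0.14. Mvk (mevalonate kinase) was at -0.12, Nsdhl at -0.12, Msmo1 at -0.11, Pmvk at -0.09 and Acat2 at -0.08, all with an unadjusted p under 0.05. Lbr, a nuclear membrane protein with sterol reductase activity, lay closest to 0, at -0.02.

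Genes next to the pathway had medians nearer to 0. Over all genes 48.6% were fitted lower, and 2.26% were lower with an unadjusted p under 0.05 in edgeR's test. Of all 17927 genes, 9214 were fitted higher, and 516 were higher with such a p. Of 8 genes for branches off mevalonate, such as dolichol and ubiquinone synthesis, 1 had an unadjusted p under 0.05, Nus1 at -0.07 on the log2 scale, and the median was -0.01. Of 11 genes of SREBP control and cholesterol uptake, 1 was lower and 1 higher with an unadjusted p under 0.05, the latter Mbtps2, a protease that releases SREBPs, at 0.07, while Srebf2 was at -0.01 and the list's median at -0.01. Of 10 genes of fatty acid synthesis, 9 were fitted lower, Scd1 at -0.19 and Scd2 at -0.09 with an unadjusted p under 0.05, and the median was -0.06. Among 16 measured genes of cholesterol export and turnover, many of them targets of the sterol sensor LXR, 12 were fitted higher and the median was 0.02, Lpcat3 at -0.10 being the one with an unadjusted p under 0.05. No gene of these lists had an FDR under 0.05.

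No cell type marker had an FDR under 0.05 between KO and WT. All 8 choroid plexus markers were fitted lower in KO, against 48.6% of all genes, and 7 of them had an unadjusted p under 0.05, against 2.26%. Their summed level was lower in KO in 7 of 7 pairs, between 860 and 1113 CPM in WT and between 715 and 966 CPM in KO. Most of that sum was Ttr, a transport protein of the choroid plexus, at 846 ± 74.1 CPM in WT and 680 ± 84.2 CPM in KO (SD, n = 7 each). Of 10 markers of the oligodendrocyte lineage, 9 were fitted lower, 1 with an unadjusted p under 0.05, and their summed level was 389 to 675 CPM in WT and 425 to 682 CPM in KO. Of 8 meningeal markers 6 were fitted lower, 3 with an unadjusted p under 0.05. Fitted higher were 6 of 8 microglial and 7 of 10 neuronal markers, against 9214 of all 17927 genes. With an unadjusted p under 0.05, 1 microglial marker was higher, and of the neuronal markers 1 was higher and 1 lower. Of all genes 516 were higher and 2.26% lower with such a p. No marker of these lists was at 0 in any library. Their part in the levels of the cholesterol genes was not tested.

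Litter gave calls where genotype and sex gave none. In the same fit 7 of the 9 genes differed between litters with an FDR under 0.05, against 29.6% of all genes, and the quasi-likelihood FDR was 0.00030 for Hmgcs1, 0.0014 for Idi1 and 0.0018 for Dhcr7. For Lss and Insig1 it was 0.246 and 0.410. The 4 brains of litter B averaged 73.4% of the mean of the other 10 for Idi1, 78.6% for Hmgcs1 and 79.1% for Dhcr7, but 96.9% for Lss and 97.9% for Insig1. Hmgcs1 lay between 801 and 945 CPM in litter B and between 983 and 1272 CPM elsewhere, and Idi1 between 20.99 and 27.1 CPM in litter B and between 30.05 and 37.1 CPM elsewhere. For these, Cyp51 and Dhcr7, 4 of the 9 genes, litter B did not overlap with the other libraries, which held for 9.77% of all genes. Without litter B, 0 of the 9 genes and 1.09% of all genes had a litter FDR under 0.05.

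**Figure D3:**
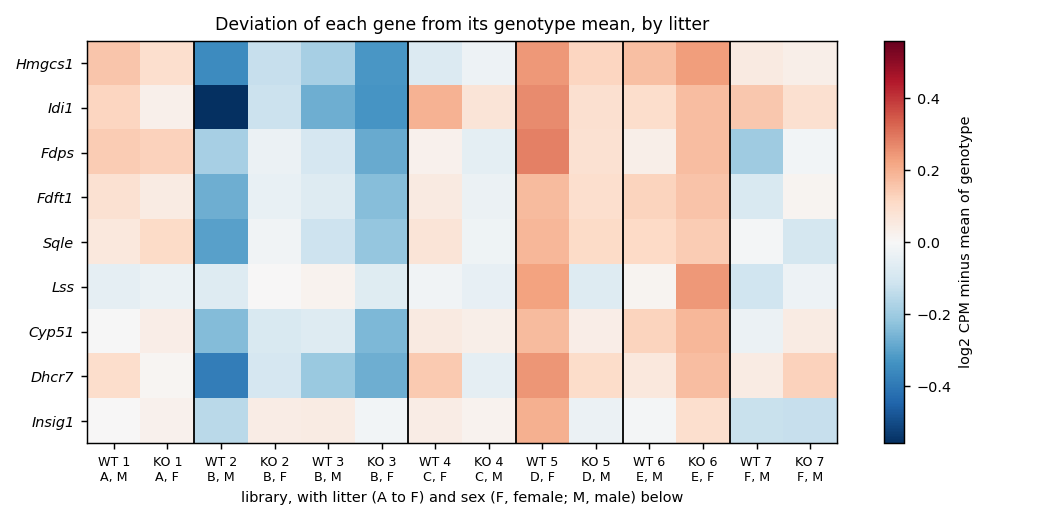
Log2 CPM of each gene minus the mean of its genotype, in the 14 libraries ordered by litter, red above and blue below the mean, with vertical lines between litters. The 4 libraries of litter B are below the mean for most genes, WT 5 of litter D is above it for all 9, and Lss and Insig1 are paler than most genes in WT 2 and KO 3 of litter B.

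Litter B also differed in the sums of some cell type markers. Summed markers of the oligodendrocyte lineage were at 389 to 433 CPM in litter B and at 454 to 682 CPM elsewhere, and those of astrocytes and radial glia at 2094 to 2315 CPM against 2472 to 2844 CPM. Abundant genes weigh most in such sums, and not every gene followed. Sox9, an astrocyte and radial glia marker, was at 15.5 to 18.8 CPM in litter B and at 13.6 to 16.9 CPM elsewhere. Of all single genes, 9.77% were lower in litter B without overlap. Red cell markers were at 199 to 325 CPM in litter B and at 31.2 to 201 CPM elsewhere. The sums of neuronal, microglial, endothelial, choroid plexus and meningeal markers overlapped between litter B and the other litters. Whether the cell type markers bear on the cholesterol genes was not tested.

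Sex was compared in the same fit. All 9 genes were fitted higher in females, as were 51.6% of all genes, with a median log2 difference of 0.08. The direction of Hmgcs1, fitted at 0.03, turned to -0.0034 without WT 5, KO 5 or litter D, which are nearly the same fit. Its plain mean was 1043 CPM in females and 1050 CPM in males. Lss at 0.10, Dhcr7 at 0.11 and Insig1 at 0.09 had an unadjusted p under 0.05, which held in this direction for 2.41% of all genes, and 0 of 9 had an FDR under 0.05, against 0.0669% of all genes. With 1 library left out, Lss lay between 0.032 and 0.15, Dhcr7 between 0.086 and 0.14 and Insig1 between 0.046 and 0.14. All 13 other enzymes were fitted higher in females as well, 5 of them with an unadjusted p under 0.05. The genes varied together across brains, so these are not counts of independent genes. Most pairs differed in sex, so the sex and genotype terms were fitted from the same pairs. WT 5, the highest library for all 9 genes, was female and entered both terms. Since 4 of 7 KO and 2 of 7 WT brains were female, the fitted KO difference was nearer to 0 when sex was left out, from -0.10 to -0.05 for the 9 genes, and 2 of them then had an unadjusted p under 0.05. Of all genes, 3.83% had such a p in either direction in that fit.

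Per length of coding transcripts, Hmgcs1 had the highest level, at 298 ± 42.7 CPM per kilobase of exon in WT (SD, n = 7). Sqle followed at 78.7 ± 8.60 and Cyp51 at 58.5 ± 5.49 CPM per kilobase. Fdft1 at 47.6 ± 4.93, Fdps at 42.9 ± 5.30 and Insig1 at 41.2 ± 3.34 CPM per kilobase overlapped within 1 SD. Lss at 22.9 ± 1.82, Dhcr7 at 15.1 ± 2.18 and Idi1 at 10.2 ± 1.91 CPM per kilobase ended the order, which was the same in KO. Fdps overlaps Gm43738, annotated as protein-coding on the same strand and absent from the deposited counts, with 929 identical bases. Cyp51 overlaps Akap9 on the other strand, with 166 identical bases. How far reads were shared between Fdps or Idi1 and their pseudogenes, or between overlapping genes, was not tested.

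The 9 genes varied together across brains of one genotype. With genotype means subtracted, Pearson's r of the log2 CPM over the 14 libraries was above 0 for 36 of 36 pairs of genes. The median was 0.83, and 31 pairs were above 0.5. Such shares over gene pairs at large are not given here. Of 15218 other genes at 1 CPM or more, 25.4% had an r above 0.5 with the mean of the 9. Idi1 with Dhcr7 was highest, at r = 0.97 (rho = 0.91, adjusted permutation p = 5.1e-05 over the 36 pairs for r and 0.00029 for rho). Hmgcs1 with Sqle gave r = 0.91 (rho = 0.90, adjusted permutation p 8.3e-05 and 0.00029), and Fdft1 with Dhcr7 gave r = 0.91 (rho = 0.85, adjusted permutation p 8.3e-05 and 0.00090). Without the 2 libraries farthest from the median of the first gene, r was 0.93, 0.79 and 0.77 for these pairs. Permutation treats the libraries as exchangeable, although littermates share a litter.

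Over all 14 libraries, Lss and Insig1 had a lower r with the other 7 genes than these had with each other, but not without litter B. Among the other 7, r was 0.69 to 0.97. The r of Lss or Insig1 with the other 7 lay between 0.37 and 0.67, and between Lss and Insig1 it was 0.77. Idi1 with Lss was the lowest pair, at r = 0.37 (rho = 0.34, unadjusted permutation p 0.17 and 0.24, adjusted 0.17 and 0.25). Hmgcs1 with Insig1 gave r = 0.42 (rho = 0.33, adjusted permutation p 0.14 and 0.25) and 0.22 without the 2 farthest libraries. After the mean of each litter was subtracted in place of the genotype mean, r of Insig1 with the other 7 was between 0.68 and 0.87, Hmgcs1 with Insig1 was at 0.87 and Idi1 with Lss at 0.58, and the median over the 36 pairs was 0.81. Without litter B, Lss or Insig1 with the other 7 was at 0.47 to 0.94, the highest pair being Lss with Cyp51, and r among the other 7 was 0.31 to 0.90. The median was then 0.68, Hmgcs1 with Sqle 0.68, Idi1 with Dhcr7 0.82 and Hmgcs1 with Idi1 lowest at 0.31.

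**Figure D4:**
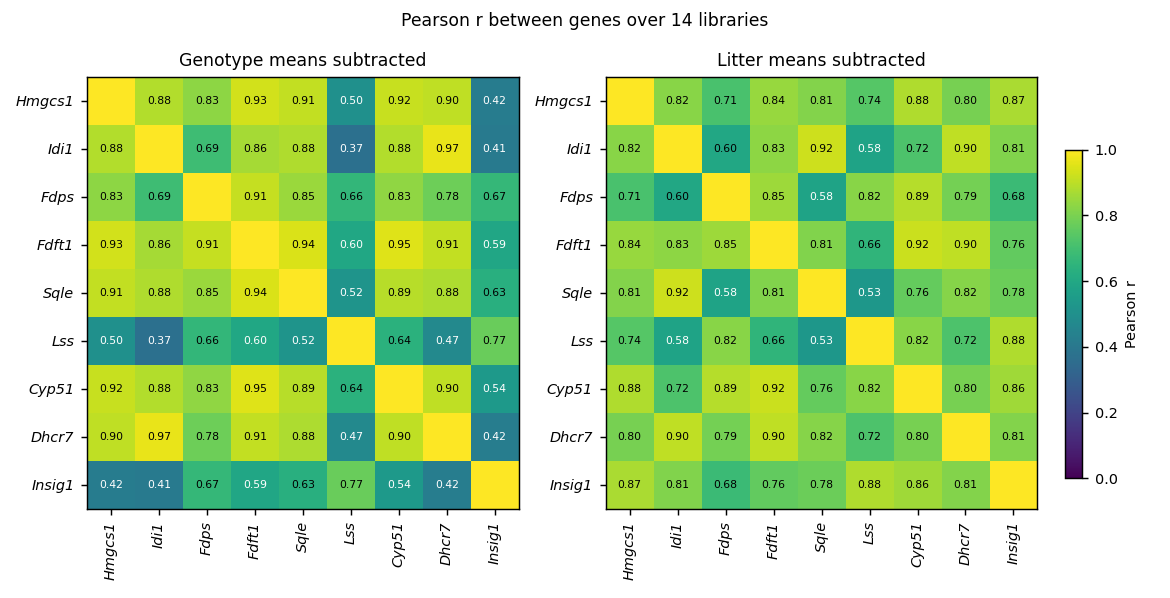
Pearson's r of log2 CPM between the 9 genes over 14 libraries, on the left after subtraction of the genotype means and on the right after subtraction of the litter means, the colour scale running from 0 to 1. The columns of Lss and Insig1 are dark on the left, with r down to 0.37, and the lowest r on the right is 0.53.

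The genes most like the 9 were found by their r with the mean of the 9 after subtraction of the genotype means, over 14 libraries and 15218 other genes at 1 CPM or more. Of the 10 highest, 5 are enzymes of the same pathway, among them Hsd17b7 at 0.97, Mvd at 0.97, Nsdhl at 0.94 and Msmo1 at 0.93. Acly, which supplies acetyl-CoA for cholesterol and fatty acids, was at 0.94. The others were Asah1 (acid ceramidase) at 0.95, Prkcd (protein kinase C delta) at 0.94, Senp8 at 0.94 and Hikeshi at 0.92. After subtraction of litter means these enzymes were between 0.84 and 0.96, Asah1 was at 0.96 and Prkcd at 0.45. The median r was 0.89 over the 13 other enzymes and 0.024 over the 15218 genes, 25.4% of which were above 0.5. It was 0.79 for the fatty acid genes, 0.60 for neuronal and 0.54 for oligodendrocyte lineage markers, and lowest for red cell markers, at -0.64. Without litter B it was 0.78 for the other enzymes, 0.48 for the fatty acid genes, 0.05 for neuronal and -0.32 for oligodendrocyte lineage markers. Among the regulators, Srebf2 was at 0.74 and Srebf1 at 0.00057.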

How the data were processed

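RNA-SEQ counts of 7 WT and 7 Capn15 KO P2 brains were used. The authors deposited raw counts per gene, unnormalized, for 17927 genes that they had filtered. Per the paper's methods reads were trimmed to a phred score of 30, aligned to GRCm38 with STAR 2.7.8 and counted with HTSeq-count 0.11.1 from ScriptSeq libraries, whereas the labels name a stranded TruSeq kit and the submitters' processing notes featureCounts. The annotation release, the strand setting and the filter on genes are not given in the sources used here. The labels gave the groups, and the column names gave litter and sex. All libraries share 1 batch label. Per the paper's methods they were sequenced 4 to a lane, and which shared a lane is not given in the sources used here.

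Counts were tested in R 4.3.3 with edgeR 4.0.16 (quasi-likelihood test, TMM factors, litter, sex and genotype, all genes with at least 1 count), with FDR over 17927 genes and a threshold of 0.05. Log2 CPM used a prior count of 2. The test was checked on simulated counts. Exact permutation tests used all 3432 regroupings, and correlations 100000 permutations, with 1e-05 the smallest p possible. Alternatives were edgeR's likelihood ratio test, DESeq2 1.42.0, limma-voom 3.58.1, other scalings, filters, covariates and sets of libraries, including a replicate block. The fits without litter B or litter D were chosen after seeing the data. The column names place same-numbered brains in 1 litter. Their deviations from the group means correlated between -0.47 and 0.44 by pair, with a mean of 0.12 over 15227 genes, against -0.019 for other numbers. Positions and exons came from GENCODE M21 on GRCm38, where 17909 of 17927 identifiers were found, near copies from blastn 2.17.0, and promoters from RefSeq. Python 3.11.15, numpy 2.4.6, scipy 1.17.1, pandas 2.3.3 and matplotlib 3.10.9 were used.

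The 9 genes and all lists were chosen with earlier results of these data known. The genes named are the 9, Capn15, the genes of each pathway list with an unadjusted p under 0.05, or failing that the highest and lowest, and the 10 most like the 9. Lbr, Srebf1, Srebf2 and the regulators given with a correlation were named after their values were seen. Counts limit precision as counting error only. The quasi-likelihood p-values set a difference against the spread between these brains that is left after litter, sex and genotype. The exact tests set it against regroupings or sign changes of the same values. The values of some listed genes, which stay in every fit and count, are not reported here.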

Additional observations from a re-analysis of the deposited data

Results flagged for a closer look

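Lss had single libraries far from the rest of their groups. On the log2 CPM scale the WT brain of litter D (WT 5) was at 7.04, with the nearest WT library at 6.83, a gap of 0.610 of the range of the 7 WT libraries. In KO, the brain of litter E (KO 6) was at 6.97, with the nearest at 6.73 and a gap of 0.763 of the range. Both exceed the 95% critical value of Dixon's test for 7 values, which 2 of the 18 combinations of gene and genotype did. Chance gives about 1 in 20.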

How the results depend on the processing

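In the 28 alternative fits of KO against WT the 9 genes were all fitted lower. None had an FDR under 0.05, the lowest being 0.222. The 28 fits are not separate checks. With litter as a covariate, a brain left alone in its litter adds almost nothing to the genotype and sex terms. Leaving out either brain of a litter of 2 is therefore nearly the same fit as leaving out both. Without WT 5, KO 5 or litter D, the lowest log2 fold change of the 9 was -0.116 each time. The other enzymes were lower in 13 of 13 except with litter but not sex as covariate, where 12 were. Genes of the 9 lower with an unadjusted p under 0.05 numbered 6, but 1 with genotype alone, 2 with litter but not sex, 2 with sex but not litter, 0 without litter D, and 0 to 8 with 1 library left out, 0 without WT 5 or KO 5 and 3 without WT 4 or KO 4. Of the other enzymes 8 were, but 0, 4, 0 and 4 in the same fits, and 4 to 9 with 1 library left out. Of all genes, 5.14% had an unadjusted p under 0.05 in either direction in the main fit. That share was 1.45%, 3.83%, 1.47% and 8.08% in the same fits, and 3.74% to 8.08% with 1 library left out. All genes with an FDR under 0.05 for genotype numbered 1, but 34 in the likelihood ratio test, 17 in DESeq2, 0 with library totals, 2 with litter but not sex, 7 without both libraries of replicate 7, 0 without litter B, 0 without litter D, and 0 to 7 with 1 library left out. For sex they numbered 12, but 36 in the likelihood ratio test and 19 in DESeq2. For litter, 7 of the 9 genes and 5301 of all genes became 0 and 196 without litter B. The female to male difference of Hmgcs1, 0.03, was -0.0034 without WT 5, without KO 5 or without litter D, and lay between -0.0034 and 0.069 with 1 library left out. The cause was not tested.

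With the replicate block in place of litter, 0 of all genes had an FDR under 0.05 for genotype, the lowest FDR of the 9 was 0.692, and the block changed no call among the 9. Depth does not limit the 9 genes, whose lowest count was 841.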

Other observations

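Genes of cholesterol export did not share 1 direction with the 9 genes across brains. Over the 15 genes of export and turnover at 1 CPM or more, the median r was 0.16, and 4 were above 0.5. The genes named here were picked after their values were seen, and the values are descriptions over 14 libraries. Abcg1, a sterol exporter and LXR target, had r = -0.89 with the mean of the 9 after subtraction of the genotype means, at rank 15207 of 15218 genes, and Abca1, which loads cholesterol onto apolipoproteins, had r = -0.82. Abcg4, another sterol exporter, had r = 0.81, at rank 318, but 0.05 with litter means subtracted. Subtracting litter means in place of genotype means gave -0.74 for Abcg1 and -0.58 for Abca1, and leaving out litter B gave -0.56 and -0.88. Mbtps1, the site-1 protease that cuts SREBPs, was at -0.88, and at -0.79 and -0.59 in the same settings. Apoe, the main apolipoprotein of the brain, was at 0.51, but at 0.19 with litter means subtracted and at -0.62 without litter B. Stard4, a sterol carrier and SREBP target, was at 0.79, and at -0.02 without litter B.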
